A study of Drosophila melanogaster with 27 samples.

Results

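Germ cells and somatic cells of the *Drosophila melanogaster* larval ovary were compared at 96 h AEL (after egg laying), the mid stage of terminal filament formation. The comparison took every library of that stage from the sorted tissues, 3 of germ cells (replicates 1, 3 and 4) and 3 of somatic cells (replicates 1, 2 and 3), out of 27 libraries of whole and sorted ovaries, 18 of them sorted. All 16257 genes of the deposited table entered, and 11243 of them had enough counts to be tested. Germ cells carried *nos:GAL4* (labelled nos:GAl4>GFP, from males with *UAS-Dcr-2* and the *GAL4-nos.NGT* insertion) and somatic cells *bab:GAL4* (labelled bab:Gal4>GFP, from males with a GAL4 insertion in *bab1* over the balancer *TM6B*), each crossed to females with *UAS:Green Stinger*, a nuclear GFP. Larval ovaries were pooled and dissociated with enzymes, and GFP-positive cells were sorted by FACS. No library carries the other tissue's driver, so the driver parent and the tissue cannot be told apart. Whole ovaries of the same age came from Oregon R larvae.

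The larval ovary holds primordial germ cells, from which the germ line stem cells of the adult are selected, and several somatic populations. Somatic terminal filament cells stack into filaments that become the niche at the tip of each ovariole, while intermingled cells contact the germ cells and swarm and sheath cells surround them. Germ cells of *Drosophila* express a set of RNA-binding and RNA helicase proteins that hold back translation and differentiation, and they defend their genome with Piwi-interacting RNAs (piRNAs), short RNAs that guide Argonaute proteins to transposon transcripts. Somatic cells use hormone, Hedgehog and Notch signals together with adhesion, actin and basement membrane proteins to shape the organ.

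The germ libraries of this stage were less alike than any other group at hand. They held 9680615, 26177651 and 19834375 expected counts in replicates 1, 3 and 4, against 72875881, 30500686 and 20811128 in somatic replicates 1, 2 and 3, and counts fell on 7580, 8883 and 8593 genes against 10666, 10747 and 9149. Thinned to the smallest total, the germ libraries kept counts on between 7580 and 8786 genes and the other 15 sorted libraries on between 9119 and 11623. The biological coefficient of variation, the relative spread between replicates that edgeR estimates, was 1.28 among the germ and 0.585 among the somatic libraries of 96 h, and 0.771 in the fit of all 18 sorted libraries. Pearson's r of log2 counts across genes, which are not independent replicates, was between 0.774 and 0.826 among germ libraries, between 0.938 and 0.96 among somatic ones and between 0.79 and 0.824 across the tissues. Transcripts of the mitochondrial genome took 21.8, 8.74 and 2.33% of germ replicates 1, 3 and 4 and between 5.7 and 7.48% of the somatic libraries.

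Levels are given as CPM, counts scaled to a common library total with TMM factors, in the order of germ replicates 1, 3 and 4 and of somatic replicates 1, 2 and 3. A count of 3 corresponds to between 0.1146 and 0.3099 CPM in the germ and between 0.04117 and 0.1442 CPM in the somatic libraries, counting error only. CPM is not divided by gene length, so levels are compared within a gene. In bulk samples a lower level of a transcript cannot be separated into fewer cells of a type and less RNA per cell.

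The sorted identities showed clearly on the germ line side. *vas*, a DEAD-box RNA helicase of germ cells on chromosome 2L (15061656 to 15074311, plus strand, Release 6), was at 1028, 1399.9 and 1639.9 CPM in germ libraries and at 1.06, 6.06 and 2.06 CPM in somatic ones. *nos*, the translational repressor whose promoter drives the germ cell sort (chromosome 3R, 19157238 to 19160202, plus strand), was at 328, 384 and 229.9 against 0.241, 2.21 and 0 CPM. The lowest germ library lay far above the highest somatic one for both genes, with a log2 fold change (germ over somatic) of 8.81 ± 0.72 (SE, adjusted p = 1.7e-06) for *vas* and 8.60 ± 1.19 (adjusted p = 2.14e-04) for *nos*. Both genes were the paper's own checks of the sort. The paper also reported *AGO3*, *aub*, *krimp*, *tej* and *bgcn* among its most significant germ genes across stages. The germ marker list, which holds these genes, was therefore not independent of these libraries. Of 12 germ cell markers, 10 were higher in germ cells at an adjusted p of 0.01. The others were *tud*, which encodes a Tudor domain protein, at 853, 1331 and 606 against 576, 500.1 and 456 CPM (log2 fold change 0.86 ± 0.25, adjusted p = 0.0252), and *piwi*, an Argonaute that also acts in somatic cells of the ovary, at 1474, 2247 and 3023 against 1667, 1955 and 1983 CPM (0.27 ± 0.21, adjusted p = 0.387).

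Markers of ovarian somatic cells gave a weaker contrast, and the germ libraries held them at very different levels. All 12 had a log2 fold change under 0, with a median of -1.56, and 0 of 12 passed the test. Their summed level was 5196, 2907 and 806 CPM in germ replicates 1, 3 and 4, or 77.2, 43.2 and 12% of the mean of the somatic libraries (6418 to 7298 CPM). *bab1*, the gene whose GAL4 insertion drives the somatic sort, was at 84.2, 87.2 and 36.9 against 91, 65.9 and 85.8 CPM (-0.22 ± 0.37, adjusted p = 0.711), so that the groups overlapped. *tj*, a transcription factor of intermingled cells, was at 119, 52 and 55.7 against 187, 246 and 407 CPM (-1.89 ± 0.73, adjusted p = 0.0831), and *hh*, the Hedgehog ligand of terminal filaments, at 22.5, 30.5 and 15.9 against 135, 129 and 94.1 CPM (-2.37 ± 0.58, adjusted p = 0.0114). Neither pair of groups overlapped, but neither difference passed. None of the 12 was at 0 in all germ libraries, although *en* was at 0 in germ replicates 1 and 4 and *stumps* in replicate 1, and the part of this somatic signal in the results below was not tested.

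**Figure D1:**
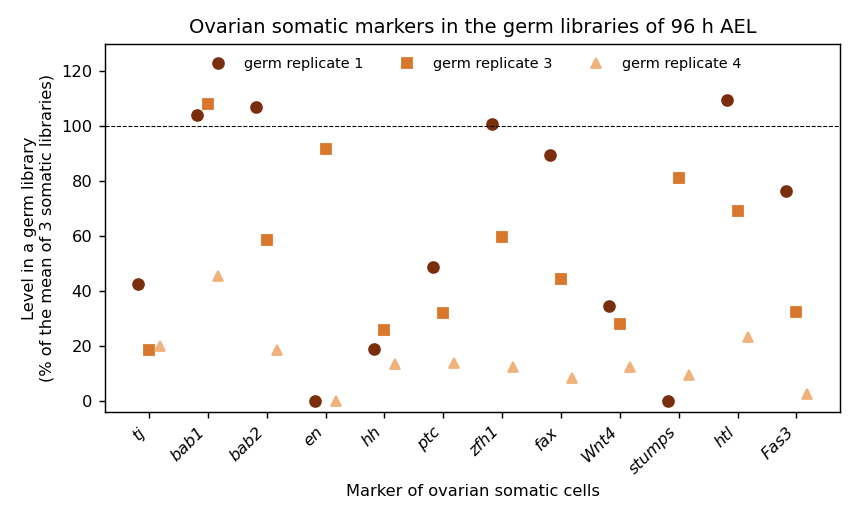
Level of 12 ovarian somatic markers in each germ library of 96 h AEL, as a percentage of the mean of the 3 somatic libraries (dashed line, 100%). Points of germ replicate 4 lie between 0 and 45.6%, and those of replicate 1 reach 109.6% for *htl*.

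Transcripts of fat body, the larval storage tissue in which the ovary lies, stood out in 1 germ library. The 9 fat body markers summed to 3335, 49.5 and 36.1 CPM in germ replicates 1, 3 and 4 and to between 2.19 and 11 CPM in the somatic libraries. *Lsp1beta*, a hexamer storage protein, was at 1288, 1.14 and 0 CPM in germ libraries and at 0, 0.14 and 3.26 CPM in somatic ones, which overlap (adjusted p = 0.0529). *apolpp*, the lipid carrier of the hemolymph, was at 88.6, 31.1 and 21.4 against 1.4, 0.561 and 1.1 CPM and was called higher in germ cells (5.51 ± 0.65, adjusted p = 4.86e-05), as it was without germ replicate 1. Hemocyte markers summed to 862, 719 and 175 CPM in germ replicates 1, 3 and 4 and to between 767 and 1704 CPM in somatic libraries. Of these 12 markers, 5 were at 0 in all germ libraries, among them *Hml*, *NimC1*, *eater* and *He*, and 7 in all somatic ones. *Pxn* was at 53.1 to 281 against 295 to 846 CPM and *Ppn* at 32.1 to 439 against 407 to 729.9 CPM. The hemocyte list had 1 call of 7 tested genes, the scavenger receptor *crq*, higher in germ cells (108, 58.9 and 86.3 against 45.6, 45.5 and 39.1 CPM, adjusted p = 0.0064). The call of *crq* was lost in 8 of the 18 fits with 1 library left out, among them those without germ replicate 1 or any 1 of the somatic libraries. The muscle, neuron, trachea and gut lists had 0 calls. Muscle markers summed to 1422, 826 and 185 CPM in germ replicates 1, 3 and 4 and to between 883 and 948 CPM in somatic libraries, gut markers to 64.4, 5.43 and 5.46 against 0.525 to 5.77 CPM and neuron markers to 152, 188 and 71.6 against 77.3 to 84.9 CPM, and their part in the results was not tested.

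Germ and somatic cells differed in 840 of 11243 genes (7.47%) at a Benjamini-Hochberg adjusted p of 0.01. Higher in germ cells were 436 genes (3.88% of those tested), with a median log2 fold change of 2.31, and higher in somatic cells 404 genes (3.59%), with a median of -1.70. The groups of libraries did not overlap in 429 and 404 of them, where 9.76 and 19.5% of all genes tested had no overlap with the germ and the somatic libraries higher. The median over all genes tested was -0.03, and 3861 genes had an unadjusted p under 0.05. The fit shares its estimate of spread over the 18 libraries. With the 6 libraries of 96 h alone 30 and 10 genes were called, and with each library left out in turn between 225 and 608 genes for germ and between 182 and 694 for somatic cells, the highest without germ replicate 4 and the lowest without somatic replicate 1 or 2. In every one of these 18 fits 186 germ and 153 somatic calls remained. The shares of 3.88 and 3.59% are the background for the counts of list members below.

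**Figure D2:**
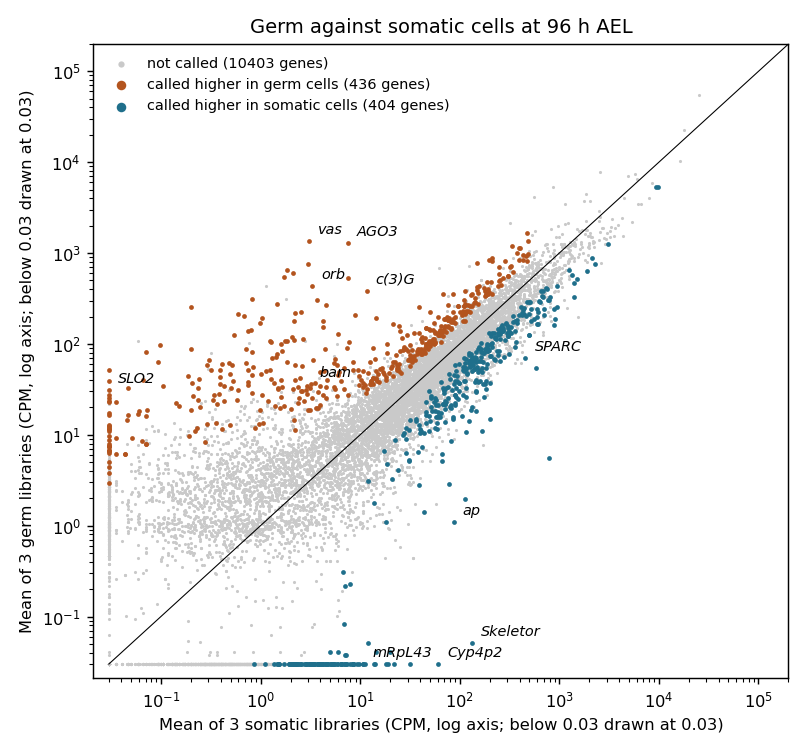
Mean level of each tested gene in the 3 germ libraries against the 3 somatic libraries of 96 h AEL, both in CPM on log axes, with means below 0.03 CPM drawn at 0.03 and the line of equal levels. The 436 genes called higher in germ cells reach down to a somatic mean of 0, and many of the 404 called higher in somatic cells lie on the lower edge, where the germ libraries had no or almost no count.

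Genes that set germ cell identity and control its translation made up the clearest group. Of 26 tested, 15 were higher in germ cells and 0 in somatic cells, and their median log2 fold change was 3.56. *orb*, a CPEB protein that controls translation through poly(A) tails (chromosome 3R, 23260610 to 23280856, minus strand), was at 339, 638 and 322 CPM in germ and 1.66, 4.13 and 4.17 CPM in somatic libraries (7.05 ± 0.51, adjusted p = 3.98e-07). *bru1*, a repressor of *osk* translation, was at 486, 669 and 484 against 0, 5.22 and 0 CPM. *ovo*, a zinc finger transcription factor required in female germ cells, was at 607, 851 and 511 against 0.558, 4.97 and 0 CPM. For these genes no somatic library came near the lowest germ library.

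The genes that take stem cell daughters into differentiation were already measurable. *bam*, the switch gene that germ line stem cells keep off, was at 29.7, 12.6 and 66 CPM in germ libraries and at 1.73, 3.61 and 4.22 CPM in somatic ones (3.51 ± 0.63, adjusted p = 0.00128). Its partner *bgcn* was at 169, 300.3 and 441 against 2.19, 5.43 and 3.51 CPM (6.36 ± 0.50, adjusted p = 1.06e-06). *mei-P26*, a TRIM-NHL protein of the same pathway, was at 913, 1214 and 399.6 against 213, 189.9 and 192 CPM (2.09 ± 0.33, adjusted p = 5.67e-04). All 3 genes had no overlap, as had 429 of the 436 germ calls. The somatic libraries kept more *mei-P26* than *bam* or *bgcn* relative to the germ libraries. Translational repressors that many cells use were not called: *pum* was at 479, 729.9 and 230.0 against 415, 306 and 259 CPM (adjusted p = 0.21) and *brat* at 1181, 722 and 379 against 614, 646 and 569.5 CPM (adjusted p = 0.449).

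Sex and contact genes of germ cells also differed. *Sxl*, the master switch of female sex determination and the 1 call of 10 genes of that list, was at 1589.9, 1397 and 439 CPM in germ libraries and at 450.2, 426 and 314 CPM in somatic libraries (1.53 ± 0.35, adjusted p = 0.00679), although germ replicate 4 lay below somatic replicate 1, the groups overlapped and the call was lost in 9 of the 18 fits without 1 library. *Phf7*, a chromatin reader known for its role in the male germ line, was at 69.1, 69.3 and 76.5 against 25.4, 33.4 and 37.8 CPM (1.16 ± 0.21, adjusted p = 0.00175). *zpg*, the gap junction innexin of the germ line and the 1 call of 6 innexins, was at 101, 251 and 290.1 against 0.0151, 1.75 and 0 CPM (8.57 ± 1.26, adjusted p = 3.38e-04). *Inx2*, an innexin of somatic cells, was at 1831, 787 and 228 against 1814, 2013 and 2062 CPM (adjusted p = 0.285), with germ replicate 1 inside the somatic range.

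**Figure D3:**
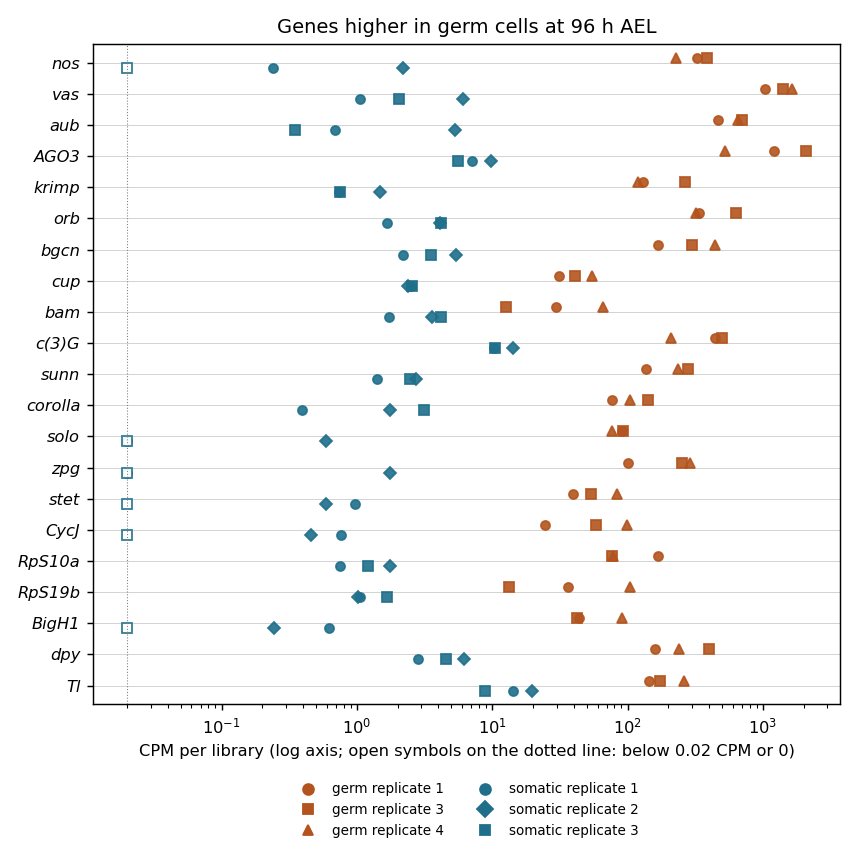
Level of 21 genes in each germ (orange) and somatic (blue) library of 96 h AEL, in CPM on a log axis, with libraries under 0.02 CPM or at 0 as open symbols on the dotted line. The germ and somatic symbols of each gene are separate, from *bam* (12.6 to 66 against 1.73 to 4.22 CPM) to *vas* (1028 to 1639.9 against 1.06 to 6.06 CPM).

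Calls among piRNA genes were all on the germ side. Among genes of nuage, the perinuclear granule where piRNAs are amplified, 7 of 15 were higher in germ cells and 0 lower, with a median of 1.15. Besides *vas*, the called genes included both Argonautes of the amplification cycle. *AGO3* was at 1198, 2098 and 528 CPM in germ libraries and 7.07, 9.88 and 5.62 CPM in somatic ones (7.40 ± 0.49, adjusted p = 1.68e-07), and *aub* at 468, 702 and 655 against 0.694, 5.29 and 0.351 CPM (8.17 ± 0.87, adjusted p = 2.18e-05). The Tudor domain proteins *krimp* (129, 266 and 119 against 0.739, 1.47 and 0.753 CPM), *tej* (66.5, 142 and 94.9 against 2.05, 0.946 and 1.86 CPM) and *qin* (591, 1015 and 679.9 against 2.31, 6.59 and 0.0502 CPM) were also called. *spn-E*, a helicase of the same granule, was high in both tissues, at 729, 1159 and 976 against 417, 429 and 442 CPM (1.15 ± 0.20, adjusted p = 0.00126).

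Of 13 nuclear and cluster factors of the piRNA pathway, a list that also holds *piwi*, 5 were called, all higher in germ cells. *rhi*, the HP1 protein that marks piRNA clusters, was at 48.6, 79 and 40.2 against 0.588, 1.23 and 0.703 CPM (6.06 ± 0.84, adjusted p = 2.14e-04). Its partners *del* and *cuff* differed to unequal degrees, *del* at 52.6, 109 and 101 against 25.5, 27.4 and 30.5 CPM (1.66 ± 0.25, adjusted p = 3.53e-04) and *cuff* at 33.5, 8.01 and 18.1 against 1.1, 2.31 and 1.3 CPM (3.65 ± 0.57, adjusted p = 5.3e-04). Of 9 genes that process piRNAs in both cell types only *Gasz*, a mitochondrial scaffold, was called (29.2, 55.4 and 58.6 against 19.6, 19.1 and 20.5 CPM, adjusted p = 0.00404), and this call was lost without germ replicate 3 or any 1 of the somatic libraries. *armi* was at 376, 511 and 281 against 458, 536 and 492 CPM (adjusted p = 0.337), and *fs(1)Yb*, the Tudor protein of somatic Yb bodies, at 145, 135 and 112 against 181, 227 and 253 CPM, not overlapping (-0.75 ± 0.22, adjusted p = 0.0288).

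Some genes of meiotic chromosomes were called higher in the germ libraries. Of 26 synapsis and recombination genes, 10 were higher in germ cells and 0 in somatic cells, with a median of 1.33. The transverse filament of the synaptonemal complex, *c(3)G* (chromosome 3R, 15789473 to 15792579, minus strand), was at 446, 500.0 and 210.2 against 10.3, 14.2 and 10.4 CPM (5.05 ± 0.34, adjusted p = 1.68e-07). Its central region partner *corolla* was at 76.1, 142 and 104 against 0.392, 1.75 and 3.11 CPM, and the cohesion factor *sunn* at 137, 280.4 and 235 against 1.42, 2.73 and 2.46 CPM. *ord*, another cohesion factor, was at 63.2, 67.9 and 114 against 0, 0.21 and 0 CPM. *solo* was at 91.4, 92.5 and 76.9 against 0, 0.596 and 0 CPM, but it overlaps *vas* on the same strand and its counts depend on how the authors' estimate divided shared reads. Repair genes that every dividing cell uses did not pass, among them *Blm* (97.9, 93.4 and 57.8 against 50.9, 45.6 and 50.4 CPM, adjusted p = 0.039) and *okr* (adjusted p = 0.179). The meiotic count was 6 without somatic replicate 1 and 7 without somatic replicate 2.

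Cell cycle and replication genes were mostly shared. Of 25 cell cycle genes, 4 were higher in germ cells. *CycJ*, a cyclin of the female germ line, was at 24.4, 58.3 and 98.5 against 0.769, 0.455 and 0 CPM (7.06 ± 0.85, adjusted p = 6.89e-05). *twe*, the Cdc25 phosphatase of meiosis, was at 45.2, 49 and 51.7 against 20.4, 18.7 and 11.1 CPM (1.54 ± 0.24, adjusted p = 5.3e-04). *CycE* (161, 211 and 224 against 85.7, 75.8 and 108 CPM) and *CycB* (435, 613 and 634 against 257, 289 and 367 CPM) were higher by 1.15 ± 0.22 and 0.88 ± 0.20, and both calls were lost without somatic replicate 1 or 2, that of *CycB* also without germ replicate 3 or 4 and in 8 of the 18 fits in all. The mitotic Cdc25 *stg* went the other way without passing, at 358, 211 and 75.6 against 446, 524 and 578 CPM (adjusted p = 0.119). Of 22 replication licensing genes only *Cdc6* was called (50.1, 71.2 and 76.4 against 31.8, 24.1 and 34.5 CPM, adjusted p = 0.00339), a call lost in 2 of the 18 fits. That share of 4.55% was near the 3.88% over all genes tested.

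Some germ line copies of general machinery were also called. Of 86 cytosolic ribosomal protein genes, 3 were higher in germ cells, and all are duplicated copies: *RpS10a* was at 169, 77.2 and 78.5 against 0.754, 1.75 and 1.2 CPM (6.47 ± 0.61, adjusted p = 5.96e-06), *RpS19b* at 36.6, 13.2 and 105 against 1.06, 1.02 and 1.66 CPM (5.39 ± 0.81, adjusted p = 3.79e-04) and *RpS5b* at 191, 263 and 611 against 92.7, 65.3 and 45.3 CPM (2.39 ± 0.50, adjusted p = 0.004), the last call lost in 4 of the 18 fits. The linker histone variant *BigH1*, known from the early embryo and germ line, was the 1 call of 23 histone genes, at 44, 42.4 and 90.6 against 0.618, 0.245 and 0 CPM (7.45 ± 1.17, adjusted p = 5.67e-04). Reads of such copies can be shared with their parent genes, so the split between copies is uncertain.

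The largest differences on the germ line side were in genes without a single count in the somatic libraries, 24 of the 436. *SLO2*, a sodium-activated potassium channel (chromosome 2R, 10322195 to 10416996, minus strand), was at 27.3, 37.3 and 28.9 CPM in germ libraries and at 0 in all 3 somatic ones, at least 1423-fold higher when the counts of each group are summed over its libraries, divided by their summed totals and set against a floor of 3 somatic counts. *lncRNA:CR43857* (24.6, 25.1 and 31.6 CPM) and *asRNA:CR44237* (17.5, 23.4 and 30.7 CPM) were at least 1217-fold and 1123-fold higher in the same sense. *nolo*, a secreted ADAMTS-like protein, was at 2.09, 31 and 35.1 CPM with germ replicate 1 far below the others. *HP6* and *SA-2*, a heterochromatin protein relative and a cohesin subunit, were at 22, 9.46 and 18.2 and at 9.24, 14.1 and 9.73 CPM, at least 651-fold and 508-fold higher. The remaining genes of this kind that the naming rule picked, *CG11929*, *CG31475*, *nwk*, *CG32373* and *CanB*, had bounds between 459-fold and 609.5-fold, and *dao* had 0.0452 CPM in 1 somatic library against 25.1, 44.2 and 85.6 CPM. Antisense genes are named without knowledge of strand in the counting, so their reads cannot be told from those of the opposite strand.

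On the somatic side the transcription factors of the gonad gave 4 calls of 30, all higher in somatic cells, with a median of -0.85. *ap*, a LIM homeodomain factor, had the largest difference among these 4, at 0.123, 3.15 and 0 CPM in germ libraries and 109, 98.5 and 53.8 CPM in somatic ones (-6.17 ± 1.21, adjusted p = 0.00266). *tai*, a coactivator of the ecdysone receptor, was at 52.5, 59.6 and 53 against 199, 186 and 163 CPM (-1.73 ± 0.21, adjusted p = 7.71e-05). *usp*, the partner of that receptor, was at 21.6, 26.8 and 50.1 against 60.7, 70.3 and 86.2 CPM (-1.14 ± 0.27, adjusted p = 0.0079), and *Jra*, the fly Jun, at 34.5, 46.3 and 72.3 against 105, 114 and 112 CPM (-1.11 ± 0.26, adjusted p = 0.0079). None of the 4 genes overlapped between the tissues, as was so for all 404 somatic calls. *usp* and *Jra* lost their calls in 15 and 12 of the 18 fits without 1 library. In this list 2 genes were called without germ replicate 3 or any 1 of the somatic libraries. *br*, the ecdysone-induced Broad, was among the most abundant of the list and overlapped, at 2419, 1399.7 and 124 against 1954, 1481 and 1485 CPM (adjusted p = 0.821), and *lola* was higher in the germ libraries without passing, at 1323, 1433 and 999 against 847, 712 and 664 CPM (0.76 ± 0.19, adjusted p = 0.0123).

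Of 25 genes of ecdysone synthesis and response, 3 were higher in somatic cells. Besides *tai* and *usp* this was *sad*, a cytochrome P450 of ecdysone synthesis. It had no count in any germ library of 96 h and 3.26, 3.61 and 3.46 CPM in the somatic ones, at least 58-fold higher there. Germ cells did have *sad* at the other stages, with 3.64 to 5.92 CPM at 72 h and 0.476 to 1.92 CPM at 120 h. Somatic cells had 2.57 to 8.94 and 1.9 to 2.94 CPM at these stages. *sad* was at 2.23 ± 0.586 CPM (SD, n = 3) in whole ovaries of 96 h, and its differences at 72 and 120 h were not called (adjusted p = 0.836 and 0.468).

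Genes that attach cells to matrix and to each other leaned to the somatic side, but the most abundant of them did not pass the test. All 17 basement membrane and matrix genes tested had a log2 fold change under 0, where 51.2% of all genes did, and their median was -1.25. In 11 of 17 (64.7%) the somatic libraries were higher without overlap, against 19.5% of all genes tested. Only *SPARC*, a collagen-binding glycoprotein, at 43.2, 65.6 and 99.5 against 460.4, 519 and 392 CPM (-2.72 ± 0.60, adjusted p = 0.00586), and *Plod*, a collagen lysyl hydroxylase, at 147, 152 and 64 against 438, 248 and 239 CPM (-1.35 ± 0.33, adjusted p = 0.00959), were called, and their calls were lost in 13 and 14 of the 18 fits without 1 library. The laminin *LanA* was at 6278, 5107 and 753 against 10461, 6886 and 6358 CPM (-0.97 ± 0.69, adjusted p = 0.329). Here germ replicates 1 and 3 came close to the somatic libraries and replicate 4 lay far below them.

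Some called genes of integrin adhesion and actin had even levels among the germ libraries. *Ilk*, integrin-linked kinase, was at 48.8, 42.3 and 53.9 against 115, 118 and 120.3 CPM (-1.29 ± 0.19, adjusted p = 3.52e-04). *Pax* (paxillin) was at 58.7, 78.3 and 59.5 against 267, 305 and 184 CPM (-1.94 ± 0.28, adjusted p = 2.45e-04) and *Vinc* (vinculin) at 39.9, 87.9 and 52.2 against 193, 225 and 149.8 CPM (-1.65 ± 0.32, adjusted p = 0.00223). These were the 3 called of 24 adhesion genes. *Fas2* of the same list was not called, at 2403, 1747 and 471 against 4605, 4256 and 4318 CPM (adjusted p = 0.0551), with germ replicate 4 far below the others. Of 24 actin and myosin genes, 5 were higher in somatic cells and 21 had a log2 fold change under 0. *sqh*, the regulatory light chain of myosin II, was at 186, 109 and 214 against 379, 389 and 356 CPM (-1.14 ± 0.25, adjusted p = 0.00518), *Act42A* at 339.9, 342 and 552 against 762, 716 and 738 CPM (-0.84 ± 0.20, adjusted p = 0.0083) and *flr*, which disassembles actin filaments, at 78.1, 83.1 and 79.6 against 178, 183 and 166 CPM (-1.13 ± 0.19, adjusted p = 9.86e-04). *sqh* and *Act42A* lost their calls in 4 and 13 of the 18 fits. The count was 1 of 24 without germ replicate 3 and without any 1 of the somatic libraries. The myosin heavy chain *zip* overlapped, at 1258, 1618 and 862 against 1725, 1674 and 1570.2 CPM (adjusted p = 0.185).

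Signalling pathways gave calls of few genes per list, while some lists leaned to the somatic side. The share of genes with a log2 fold change under 0 was 83.3% for Hippo and FGF, 78.9% for Wnt and 75% for Hedgehog and JAK/STAT. It was 62.5% for axon guidance, 57.1% for Notch, 45% for EGFR and 41.2% for BMP genes, and 51.2% for all genes. In Hedgehog signalling *Su(fu)*, an inhibitor, was the 1 call of 12, at 18.1, 32.1 and 42.2 against 65, 69.8 and 72.2 CPM (-1.16 ± 0.25, adjusted p = 0.005), while the receptor *ptc* was at 389, 257 and 109.6 against 828, 812 and 765 CPM without passing (adjusted p = 0.13). The call of *Su(fu)* was lost without germ replicate 3 or any 1 of the somatic libraries. In EGFR signalling *stet*, a rhomboid protease of the germ line, was at 39.4, 53.4 and 83.1 against 0.965, 0.596 and 0 CPM (6.69 ± 0.78, adjusted p = 9.92e-05), and the ligand carrier *S* (Star) at 167, 223 and 164 against 90.9, 71.5 and 64.3 CPM (1.29 ± 0.24, adjusted p = 0.00172). The secreted EGFR antagonist *aos* was higher in somatic cells, at 16.8, 24.5 and 22.2 against 70.4, 64 and 46 CPM (-1.51 ± 0.34, adjusted p = 0.00586). The calls of *S* and *aos* were lost in 2 and 5 of the 18 fits.

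Among Notch genes, 2 of 14 (14.3%) were called, against 3.88% of all genes tested, and both were higher in germ cells. They were the antagonists *H* (Hairless), at 621, 383 and 223 against 195, 178 and 149 CPM (1.23 ± 0.28, adjusted p = 0.00624), and *numb*, at 65.9, 36 and 29.6 against 19, 15.9 and 19.4 CPM (1.28 ± 0.28, adjusted p = 0.00585). The receptor *N* was at 829.6, 709 and 222 against 1163, 1083 and 876 CPM (-0.83 ± 0.36, adjusted p = 0.118). The calls were lost in 6 and 7 of the 18 fits without 1 library, among them those without germ replicate 1. In the Wnt list *dsh* was the 1 call of 19, higher in germ cells (265, 116 and 142 against 92.7, 84.8 and 76.7 CPM, adjusted p = 0.00718). The call of *dsh* was lost in 11 of the 18 fits, and the Wnt list had 0 germ calls without germ replicate 1 or any 1 of the somatic libraries and 3 without germ replicate 4. In the BMP list *bam*, its repressed target in stem cells, was the 1 call of 17. The JAK/STAT (8 genes), FGF (6), Hippo (18) and axon guidance (16) lists had 0 calls, with medians of -0.77, -1.08, -0.52 and -0.31.

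Stress, growth and death genes gave few calls. *Hsc70-4*, the constitutive cytosolic chaperone and the 1 call of 18 heat shock genes, was at 4688, 5365 and 5992 against 10149.5, 10041 and 9454 CPM (-0.89 ± 0.18, adjusted p = 0.00358), whereas *Hsp83* was at 5918, 6726 and 6780.4 against 5967, 6661 and 5328 CPM (adjusted p = 0.696). *rpr*, a cell death activator, had 0.038 CPM in 1 germ library and 2.47, 2.77 and 9.89 CPM in the somatic ones (adjusted p = 0.00431). Germ cells had between 1.71 and 4.67 CPM of *rpr* at 72 h, against 1.31 to 3.58 CPM in somatic cells. At 120 h the ranges were 0.0596 to 0.621 and 0.143 to 1.9 CPM. The caspase *Dcp-1* was at 24.9, 25.7 and 30.3 against 59.8, 49 and 44.2 CPM at 96 h (-0.92 ± 0.19, adjusted p = 0.00317). *p53* was the 1 germ call of the 19 apoptosis and JNK genes, against these 2 somatic calls, at 45.3, 31.4 and 32.8 against 8.79, 13.2 and 16.7 CPM (1.5 ± 0.33, adjusted p = 0.00534). In the insulin and TOR list 2 of 20 genes were higher in somatic cells, *sima*, the fly hypoxia-inducible factor (190.3, 192 and 121 against 278, 313 and 293 CPM, adjusted p = 0.00605), and *Rheb*, the GTPase that activates TOR (7.76, 10.5 and 17.6 against 29.8, 28.9 and 28.2 CPM, adjusted p = 0.00932). The calls of *sima* and *Rheb* were lost in 7 and 15 of the 18 fits, and the list had 0 calls without any 1 of the somatic libraries. Those of *Hsc70-4*, *rpr*, *Dcp-1* and *p53* were lost in 4, 3, 2 and 3 fits.

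**Figure D4:**
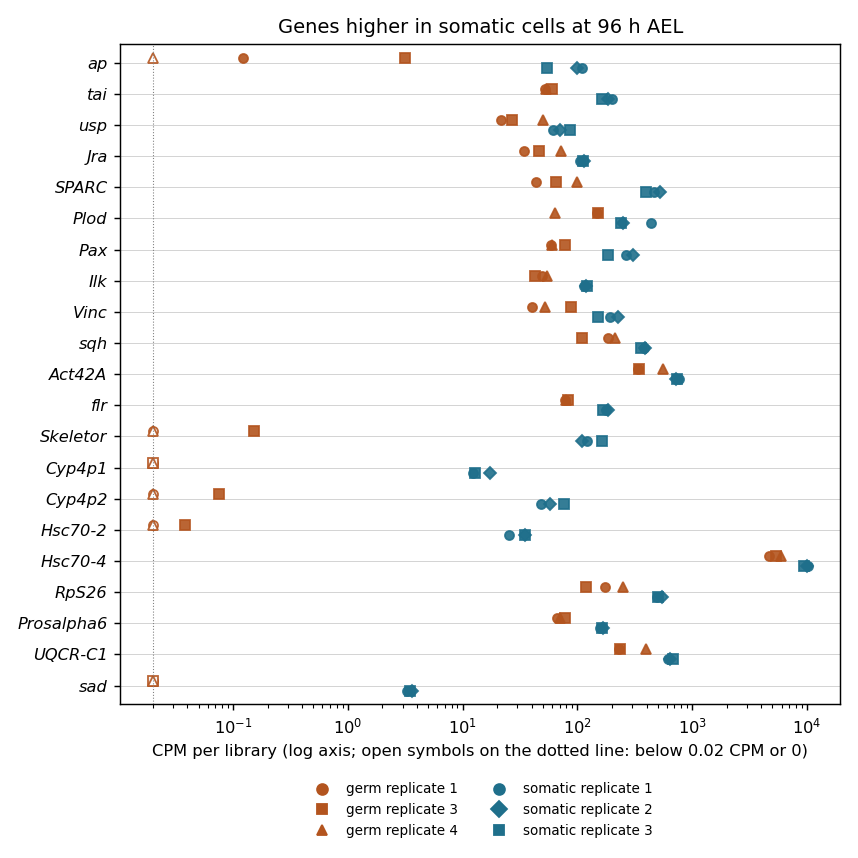
Level of 21 genes called higher in somatic cells, in each germ (orange) and somatic (blue) library of 96 h AEL, in CPM on a log axis, with libraries under 0.02 CPM or at 0 as open symbols on the dotted line. *Cyp4p1* and *sad* have all germ symbols on the dotted line, while most other genes differ by less than a factor of 10, such as *Ilk* (42.3 to 53.9 against 115 to 120.3 CPM).

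Few genes of protein synthesis, the proteasome and the respiratory chain were called, near the background share of 3.59% for ribosomal protein genes. The median log2 fold change was -0.58 over 86 cytosolic ribosomal protein genes (3 called higher in somatic cells), -0.36 over 32 proteasome subunits (3 called) and -0.73 over 63 nuclear genes of oxidative phosphorylation (4 called). At 72 h and 120 h the medians were 0.04 and 0.08 for the ribosomal protein list and -0.04 and 0.26 for the proteasome list. Those of the oxidative phosphorylation list were -0.06 and 0.34. *RpS26* was at 174, 118 and 249 against 493, 550.1 and 506 CPM (-1.52 ± 0.26, adjusted p = 0.00104), *Prosalpha6* at 66.8, 77.4 and 70.2 against 157, 167 and 163 CPM (-1.18 ± 0.18, adjusted p = 3.14e-04) and *UQCR-C1*, a subunit of complex III, at 231, 237 and 396 against 610.5, 643 and 685 CPM (-1.17 ± 0.21, adjusted p = 0.00138). Their groups did not overlap, as was so for all 404 somatic calls. Without germ replicate 4 the somatic calls were 17, 10 and 13 in these lists, without replicate 1 they were 8, 3 and 11, and without replicate 3 they were 2, 3 and 2. All 3 medians stayed under 0 with library totals, upper-quartile scaling, DESeq2's size factors and without any 1 germ library of this stage, between -0.40 and -0.86, -0.19 and -0.63, and -0.57 and -0.98. The 21 transcripts of the mitochondrial genome had a median of 1.10 and 0 calls, and the median was -0.32 without germ replicate 1.

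The naming rule for the largest somatic differences picked genes that were nearly absent from the germ libraries. *Skeletor*, a spindle matrix protein (chromosome 3R, 10686943 to 10696270, plus strand), was at 0, 0.152 and 0 CPM in germ and at 122, 109 and 164 CPM in somatic libraries (-10.87 ± 1.19, adjusted p = 3.07e-05). The neighbouring cytochrome P450 genes *Cyp4p2* (chromosome 2R, 9237512 to 9239831) and *Cyp4p1* (9240041 to 9242139, both plus strand) were at 0, 0.076 and 0 against 47.7, 58.1 and 76.9 CPM and at 0 against 12.3, 17.4 and 12.7 CPM, the latter at least 234-fold higher in somatic cells. *Hsc70-2* was at 0, 0.038 and 0 against 25.4, 34.8 and 35.2 CPM, and the uncharacterized *CG32581* and *CG42329* at 0 against 23.6, 19.8 and 22.7 CPM and against 16.7, 21.9 and 15.5 CPM, at least 386-fold and 305-fold higher. All 6 genes were called in the same direction at 72 and 120 h as well. *Cyp4p1* and *Cyp4p2* are close copies, as are *Hsc70-2* and other Hsp70 family genes, so that shared reads make their split uncertain. Of 56 P450 genes, 4 were higher in somatic cells, with *Cyp9c1* (16.9, 12.9 and 24.7 against 44.4, 52.4 and 60.1 CPM, adjusted p = 0.0039) and *Cyp6a20* the others, and *Cyp6a22* was higher in germ cells (9.85, 8.13 and 10.9 against 0.332, 0.245 and 0 CPM, adjusted p = 0.00144).

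Whole ovaries of the same age, normalized in their own table, did not carry most of these transcripts at the somatic level. *Skeletor* was at 0.486 ± 0.177 CPM (SD, n = 3) there, *Cyp4p2* at 0.325 ± 0.131, *Hsc70-2* at 0.22 ± 0.204, *CG42329* at 0.0324 ± 0.0286, and *CG32581* at 0 in all 3. *Cyp4p1* was at 3.71, 24.3 and 4.38 CPM. Of the genes called higher in somatic cells with at least 10 CPM, 8 were under 1 CPM in whole ovaries, and of those higher in germ cells 7 were, among them *lncRNA:CR43857* (0.601 ± 0.184 CPM) and *SA-2* (0.506 CPM). The whole ovaries are of another strain than the sorted cells, and the sorted tissues differ in their driver parent, so tissue, strain and dissociation cannot be told apart for these genes. Of all calls, the whole ovary mean lay between the sorted means for 294 of the 436 germ and 244 of the 404 somatic genes.

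Other genes of this kind were present in whole ovaries. *AANAT1*, an N-acetyltransferase of monoamines, was at 0 in germ libraries and at 22, 22.2 and 13.1 CPM in somatic ones, and at 6.87 ± 1.27 CPM (SD, n = 3) in whole ovaries. *Vago*, a secreted antiviral factor, was at 0.123, 0 and 0 against 10.9, 21.8 and 26.7 CPM, and at 24.6 ± 12.1 CPM in whole ovaries. *Gbp2*, a growth-blocking peptide of the fat body, was at 0 against 12.1, 12.5 and 9.08 CPM, and at 51.4 ± 30.1 CPM in whole ovaries. *CG46491* was at 0.123, 0 and 0 against 22.9, 11.3 and 9.24 CPM, and at 4.58 ± 1.21 CPM in whole ovaries. *CG43066* was at 0 against 23.6, 12.3 and 5.42 CPM, but at only 0.778 ± 0.36 CPM in whole ovaries, and is among the genes under 1 CPM there. The calls of *Vago*, *CG43066* and *Gbp2* were lost in 2, 12 and 15 of the 18 fits without 1 library (highest adjusted p = 0.011, 0.0277 and 0.0287).

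Of the 404 genes higher in somatic cells, 84 had no count in any germ library of 96 h. They were weakly expressed in the somatic libraries, with a median of 3.8 CPM and a range of 0.865 to 22 CPM. The longest annotated transcript of these genes had a median of 1487 bases, against 2195 for all 403 somatic calls with an annotation and 1882 for all genes tested. Of the 84, 48 had counts in all 6 germ libraries of 72 and 120 h and 2 had none in any of them. In the other direction, none of the 24 genes without counts in the somatic libraries of 96 h had counts in all 6 other somatic libraries, and 10 had none. The germ libraries of 96 h also detected fewer genes at equal depth, as given above, and the part of this in the calls was not tested.

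Uncharacterized genes, known only by a CG or CR number, made up 30.5% of the germ and 30.9% of the somatic calls and 36.2% of the genes tested. *CG32814* was at 114, 97.6 and 111 against 2.37, 1.02 and 2.16 CPM (5.85 ± 0.45, adjusted p = 5.73e-07) and *CG34355* at 141, 184 and 93.6 against 0.588, 0.876 and 0.803 CPM (7.55 ± 0.70, adjusted p = 5.96e-06). *CG17646* was higher in somatic cells, at 6.03, 4.48 and 7.86 against 71.1, 80.8 and 49.5 CPM (-3.45 ± 0.40, adjusted p = 4e-05). Long noncoding and antisense RNA genes gave 7 germ and 12 somatic calls of 903 tested (0.775 and 1.33%), below the 3.88 and 3.59% over all genes tested. By chromosome, between 3.03 and 5.1% of tested genes were called higher in germ cells, the highest on X (100 of 1962), and between 0 and 4.33% higher in somatic cells, with 0 of 99 on chromosome 4.

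Calls of the other stages overlapped unequally with those of 96 h. Of the 436 germ genes, 259 (59.4%) were also called higher in germ cells at 72 h, which is 71.3% of the 363 called there (3.23% of genes tested), and 260 (59.6%) at 120 h, 47.3% of the 550 there (4.89%). Of the 404 somatic genes 86 (21.3%) were also called at 72 h, 48.9% of 176 (1.57% of genes tested), and likewise 86 at 120 h, 26% of 331 (2.94%). The 201 germ and 49 somatic genes called at all 3 stages included *vas*, *orb*, *c(3)G*, *Cyp4p2* and *Skeletor*. A gene called at 1 stage alone is not thereby different between stages, and the difference was tested directly.

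Few tissue differences changed between stages by that test. The germ against somatic difference at 96 h departed from that at 72 h in 4 genes (0.0356% of those tested) and from that at 120 h in 31 genes (0.276%), while 1442 and 2130 genes had an unadjusted p under 0.05. DESeq2 called 418 and 555. Left-out libraries moved these counts between 0 and 220 and between 1 and 844, the highest in both cases without germ replicate 4 of 96 h, so the counts rest on single libraries.

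A small mitochondrial ribosomal protein gene, the 1 somatic call of 73 at 96 h, passed both tests. *mRpL43* (chromosome 2R, 23698105 to 23699014, plus strand, longest transcript 783 bases) was at 0, 0.038 and 0 CPM in germ libraries of 96 h and at 8.72, 11.9 and 11.5 CPM in somatic ones. Germ cells had 8.83, 9.36 and 11.7 CPM at 72 h and 5.96, 6.43 and 10 CPM at 120 h, close to the somatic levels of 11.6, 11.3 and 12.4 and of 5.14, 5.06 and 3.72 CPM. The germ libraries of 96 h were the only ones of the sorted cells near 0. The difference of log2 fold changes was -8.82 ± 1.0 against 72 h (adjusted p = 0.00127) and -9.75 ± 1.01 against 120 h (adjusted p = 3.63e-04). The germ libraries of 96 h held 1 count of *mRpL43* in all, so these fitted sizes are uncertain and are no bounds. Those libraries also detected fewer genes at equal depth, as given above, and the part of this here was not tested.

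Other genes shared this pattern of absence from the germ libraries of 96 h. *ND-13B*, a subunit of complex I (chromosome 3L, 10693184 to 10694108, minus strand, longest transcript 597 bases), was at 0 in all 3, after 17, 15.9 and 12.5 CPM at 72 h and before 4.5, 3.33 and 3.73 CPM at 120 h, with 1.37, 4.24 and 3.61 CPM in somatic cells of 96 h (adjusted p = 0.0059 and 0.00522). *CG31812* was at 0 after 4.45, 10.8 and 7.64 CPM and before 8.51, 7.09 and 4.58 CPM, with 5.13, 6.55 and 7.48 CPM in somatic cells of 96 h (adjusted p = 0.00635 and 0.00522). Of the 28 genes whose difference was lower at 96 h than at 120 h, 12 had no count in the germ libraries of 96 h.

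In other genes the somatic levels of the stages lay furthest apart. *CG31075* was at 3.08, 1.94 and 1.79 CPM in somatic cells of 72 h and at 25.5, 17.2 and 16.2 CPM at 96 h, while germ cells had 25.9, 34.3 and 27.7 and 23.9, 21.7 and 38.2 CPM (difference -3.18 ± 0.43, adjusted p = 0.0059). *Ns1*, a nucleolar GTPase, and *CG8939*, annotated as an rRNA methyltransferase in other species, were at 113, 129 and 152 and at 74.8, 99 and 126 CPM in somatic cells of 96 h and at 60, 71.7 and 53.7 and 31.8, 34.3 and 30.1 CPM at 120 h. Germ cells had 92.2, 98.7 and 98 and 132, 133 and 124 CPM of *Ns1* at the same stages. The cell death activator *hid* was at 112, 85.9 and 88.3 CPM in somatic cells of 96 h and at 269.9, 229.8 and 326 CPM at 120 h, with 108, 70.1 and 48.9 and 46.1, 40 and 53.8 CPM in germ cells (difference 2.22 ± 0.35, adjusted p = 0.00604).

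**Figure D5:**
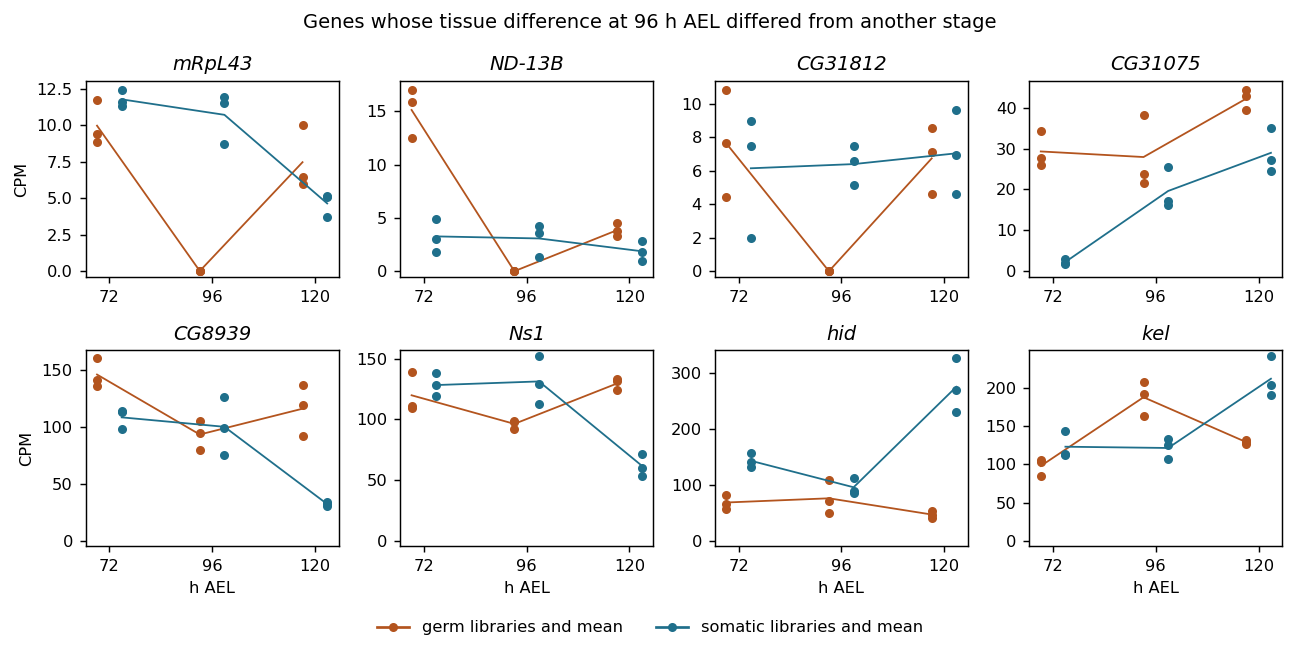
Level of 8 genes in each germ (orange) and somatic (blue) library at 72, 96 and 120 h AEL, in CPM on linear axes, with lines through the means of 3 libraries. *mRpL43*, *ND-13B* and *CG31812* are at or near 0 in germ cells of 96 h alone, and *CG8939* in somatic cells lies between 74.8 and 126 CPM at 96 h and between 30.1 and 34.3 CPM at 120 h.

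Agreement among replicates also varied by gene within each tissue. Among genes with a mean of at least 50 CPM the highest germ library exceeded the lowest by a median factor of 1.92 (3399 genes) and the highest somatic library by 1.22 (3483 genes). A factor over 10 was seen in 88 genes of the germ libraries, 70 of them highest in replicate 1 and 73 lowest in replicate 4, and in 1 gene of the somatic libraries. The 8 genes with the largest germ ratio included storage proteins of the fat body, *Lsp1beta*, *Fbp1* (322, 0 and 0 CPM), *Lsp2* (303, 0 and 2.85 CPM) and *Lsp1alpha* (236, 0.228 and 0 CPM), high in replicate 1. They also held ribosomal and mitochondrial RNA, *18SrRNA:CR45838* at 0, 757 and 1603 CPM and *ATP8* at 1561, 502 and 0 CPM. In somatic libraries the widest ratio was again that of *18SrRNA:CR45838*, at 333, 328 and 7152 CPM, with the 28S copies *28SrRNA:CR45844* (871, 1208 and 6545 CPM) and *28SrRNA:CR45837* (1009.8, 1099 and 6677 CPM) also highest in replicate 3. None of these genes was called between the tissues.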

How the data were processed

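Poly(A) RNA of FACS-sorted cells was sequenced in short single-end reads. Per the labels and the methods, the authors aligned reads with STAR 2.7.6a to a FlyBase Release 6 genome, estimated counts with RSEM 1.3.3, which divides multi-mapped reads among genes, and summed them over runs. They deposited these expected counts, not normalized, for 16257 genes. Strand in counting is not given in the sources used here. Expected counts were rounded here, filtered with filterByExpr (minimum 10 counts, 15 in total) and tested with edgeR 4.0.16 (R 4.3.3, limma 3.58.1; TMM, robust quasi-likelihood test) in the 18 sorted libraries, 1 group per tissue and stage, with Benjamini-Hochberg adjustment over 11243 genes at 0.01. The SE given with a log2 fold change is its absolute value divided by the square root of the test's F statistic. It is approximate, most of all where a group has few or no counts. The test was tried on simulated counts. Alternatives included DESeq2 1.42.0, limma voom, other scalings, thinned counts and each library left out.

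Members and gene lists were chosen with earlier results of these data known, and lists are described by counts and medians only. Named genes were the 12 with the largest change per direction (called, not overlapping, at least 10 CPM), up to 4 called and 2 uncalled members per list, the markers, the 5 per direction with the smallest adjusted p of each test between stages, the 8 with the largest ratio between libraries of a tissue, and the 5 uncharacterized genes with the smallest adjusted p per direction. Further list members are named where a role called for them, chosen after their values were seen. Genes were named by the symbols of the study's tables (5965) or the reference (16222 of 16257 in all), and positions are from Ensembl release 115 (BDGP6, Release 6), which holds 16206. Germ and somatic replicate numbers 1 and 3 are shared, but the correlation of deviations from the group means was 0 and -0.06, so the numbers were not treated as pairs. Whether libraries of the same number shared a preparation was not tested. Nothing in the labels says that replicates came from separate crosses. The p-values rest on a spread within groups that is shared over the 18 sorted libraries. Its biological coefficient of variation of 0.771 is below the 1.28 among germ libraries of 96 h, so the test can understate the spread of that group. With 3 libraries per group, an exact permutation test of 1 gene cannot give a p under 0.1. Promoter and protein sequences were not analysed here.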

Additional observations from a re-analysis of the deposited data

Results flagged for a closer look

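The difference between germ and somatic cells was itself different at 96 h from another stage in genes that included the following, by edgeR's test of that difference. It is given as the log2 fold change at 96 h minus that at the other stage. Against 72 h AEL it was -8.82 for *mRpL43*, -11.90 for *ND-13B*, -11.07 for *CG31812* and -3.18 for *CG31075*. Against 120 h AEL 31 genes were called, and only a part is listed here. It was -9.75 for *mRpL43*, -10.74 for *ND-13B*, -10.69 for *CG31812*, -1.78 for *CG5033*, -1.95 for *CG8939* and -1.52 for *Ns1*. It was 1.59 for *unc-119*, 2.22 for *hid* and 1.35 for *kel*. For *ND-13B* and *CG31812* the germ libraries of 96 h had no count, and for *mRpL43* they had 1 count in all. The fitted sizes of these genes therefore depend on edgeR's prior count and are no bounds.

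*kel*, an actin cross-linker of ring canals, was at 209, 192 and 164 CPM in germ cells of 96 h and at 132, 129 and 127 CPM at 120 h, with 125, 133 and 107 and 205, 191 and 242 CPM in somatic cells. *unc-119* was at 241, 191 and 237 and at 164, 133 and 169.9 CPM in germ cells, and at 137, 131 and 111 and at 266, 249 and 283 CPM in somatic cells. In both genes the tissue that was higher at 96 h was lower at 120 h in each library. *CG5033* was at 68.8, 64.6 and 83.2 CPM in germ cells of 96 h and 98.9, 112 and 91.7 CPM at 120 h, against 87, 96.7 and 117 and 44.4, 43.3 and 34.3 CPM in somatic cells.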

How the results depend on the processing

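The number of genes called at 96 h AEL depended on the tool and the libraries. Against 840 calls (436 higher in germ, 404 in somatic cells), DESeq2 gave 2048 (1141 and 907), an adjusted p of 0.05 in edgeR 1951 (861 and 1090), and edgeR with the 6 libraries of 96 h alone 40 (30 and 10). limma voom gave 512 and 629, and with sample quality weights 448 and 167, with the median log2 fold change of all genes at -0.31 in both. Library totals without TMM gave 462 and 285, upper-quartile scaling 511 and 331 and counts thinned to the smallest library 507 and 373.

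Each library left out in turn moved the calls between 412 and 1302, those higher in germ cells between 225 and 608 and those higher in somatic cells between 182 and 694. Without germ replicates 1, 3 and 4 of 96 h the counts were 581 and 500, 382 and 392, and 608 and 694. Without somatic replicates 1, 2 and 3 of 96 h they were 225 and 197, 230 and 182, and 265 and 247, and without germ replicate 1 of 72 h 452 and 631.

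The tests between stages were the least stable. Against 72 h, 4 calls became 418 with DESeq2, 42 with limma voom, 0 with quality weights, 2 with thinned counts, 42 at an adjusted p of 0.05, and between 0 and 220 with a library left out. Against 120 h, 31 calls became 555, 6, 132, 14, 207 and between 1 and 844 in the same order, and 17 without the filter on low counts and with upper-quartile scaling. Against the mean of both stages, 16 calls became 484, 33, 0, 5, 122 and between 1 and 680, and 6 without that filter. Of the counts with a library left out, the highest was in each case that without germ replicate 4 of 96 h.

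With the shared replicate number as a block the fit called 326 and 310 genes between the tissues and 0, 0 and 1 between stages. This is given as a description, since nothing in the labels says that the numbers pair the libraries. The causes of these shifts were not tested. Of the 120 named genes that were called, 0 changed direction in any alternative and 99 lost their call with 6 libraries, whereas 39 of the 114 that were not called, such as *brat*, *br* and *Lsp1beta*, changed sign in at least 1 alternative. The depth of germ replicate 1, where 3 counts are 0.3099 CPM, and the biological coefficient of variation of 1.28 among germ libraries limit the test of low genes.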

Other observations

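Several abundant genes outside the naming rule separated the tissues widely, and were picked after their values were seen. On the germ line side *Pxt*, a peroxidase of the ovary, was at 151, 274 and 338 CPM against 0.287, 0.315 and 0 CPM (adjusted p = 1.73e-06), the yolk receptor gene *yl* at 92.5, 202 and 312 against 0.196, 1.33 and 0.502 CPM and *exu*, which localizes maternal RNA, at 119, 101 and 113 against 2.87, 2.03 and 1.56 CPM.

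On the somatic side *CG31676* was at 6.65, 10.2 and 0 CPM against 750.1, 851 and 767 CPM (adjusted p = 9.4e-04). The receptor tyrosine kinase gene *sev*, known from the eye, was at 45.8, 40.4 and 75.2 against 458, 747 and 545 CPM (adjusted p = 0.00306), and *Epac*, an exchange factor activated by cyclic AMP, at 22.3, 25.1 and 8.96 against 156, 116 and 120.1 CPM. The septate junction gene *vari* was at 16.4, 20 and 24.7 against 95.7, 169.7 and 131 CPM.

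The difference of *dpy*, a giant protein of the apical matrix, was called higher in germ cells at 96 h (159, 402 and 240.1 against 2.83, 6.2 and 4.57 CPM), with log2 fold changes of 1.92, 5.89 and 4.61 at 72, 96 and 120 h, and *Tl*, the Toll receptor gene, was at 143, 175 and 261 against 14.3, 19.8 and 8.78 CPM, with 1.66, 3.75 and 3.69. Neither gene's difference between stages passed the test.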
